A study of Rhizophagus irregularis DAOM 181602=DAOM 197198 with 30 samples.

Results

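The change from 1 h to 2 d after the strigolactone analogue GR24 was followed in germinating spores of Rhizophagus irregularis DAOM197198, an arbuscular mycorrhizal fungus, which colonises plant roots and trades phosphate for plant carbon. The comparison uses 5 of the 30 samples of the series, namely the GR24 libraries with a column of counts, 3 at 1 h and 2 at 2 d, joined model by model. Of the 30282 gene models of the JGI catalogue Gloin1, 15170 had enough reads to be tested. All spores, 80000 per culture, had first germinated for 2 d in liquid medium in the dark under 2% CO2. They then received GR24 at 1e-06 M, or acetone diluted 1 in 1000 as the solvent control. The acetone spores of the same times, with 2 libraries at 1 h and 3 at 2 d, stand beside the GR24 spores throughout, since germination goes on in both.

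GR24 is a synthetic strigolactone. Strigolactones are small molecules that roots exude, and in arbuscular mycorrhizal fungi they stimulate spore germination, hyphal branching and respiration before any contact with a plant. A germinating spore lives on stored lipid and glycogen, because these fungi take their sugar and fatty acids from the host. The comparison therefore holds both a hormone response that began within the first hour and the slower course of germination on reserves.

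Messenger RNA with a poly-A tail was sequenced in paired reads, and gene reads per library ran from 6359363 to 10816288 over the 10 libraries. Values are CPM, read counts scaled to a common library total after adjustment between libraries by the trimmed mean of M values (TMM), and give a model's share of the RNA, not an amount per spore. More RNA of 1 kind and less of the others cannot be told apart. Standard errors follow the log2 fold changes after ±. Whether the replicates of a group were grown as separate cultures is not stated in the labels, and a p-value here reflects only how these samples vary, which may be technical. The 1 h and 2 d libraries come from separate deposited tables, so time and table cannot be told apart. Models are named by their protein ID and the description in the tables, and no genome position was used.

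By edgeR's quasi-likelihood test with Benjamini-Hochberg adjustment at 0.05, 7581 of the 15170 models changed in GR24 spores between 1 h and 2 d, which is 50.0% of those tested. Of these, 3794 rose (25.0%) and 3787 fell (25.0%). Under upper-quartile scaling, which moved the median of all models from 0.02 to 0.13 on the log2 scale, the split was 4561 to 3000. Changes of at least 2-fold numbered 1814 upwards (12.0%) and 993 downwards (6.55%). The 2-fold rises lay at low levels, with a median level of 4.57 CPM over the GR24 libraries, against 15.7 CPM for the 2-fold falls and 18.2 CPM for all models tested. A described function was available for 53.4% of the 2-fold rises, 63.6% of the 2-fold falls and 65.1% of the models tested.

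The acetone spores changed along a similar path. In them 5780 models passed (38.1%), 2954 higher (19.5%) and 2826 lower (18.6%), of which 1469 rose (9.68%) and 485 fell (3.20%) by at least 2-fold. The GR24 and acetone comparisons share no library. Both lists of rises held 2314 models, which is 61.0% of the GR24 list and 78.3% of the acetone list, and both lists of falls held 2234 models, 59.0% and 79.1%. Opposite calls were made for 53 models, of which 41 fell with GR24 and rose with acetone and 12 did the reverse. Across the 15170 models the log2 changes had a Pearson r of 0.81 and a Spearman rho of 0.75, given as a description because models are not independent replicates and all 10 libraries share 1 protocol. Among the 4548 models called the same way in both, the median size of the change was 0.89 with GR24 and 0.71 with acetone on the log2 scale, and 65.4% changed more with GR24.

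The difference between the GR24 change and the acetone change was tested as an interaction in the same fit. It passed for 973 models (6.41%), 680 with a lower GR24 change (4.48%) and 293 with a higher one (1.93%). With upper-quartile scaling the split was 521 to 423. A difference of at least 2-fold was reached by 206 of the lower (1.36%) and 63 of the higher (0.415%). The count was 416 without acetone 1 h replicate 3, 593 without acetone 1 h replicate 2 and 575 without GR24 2 d replicate 3.

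**Figure D1:**
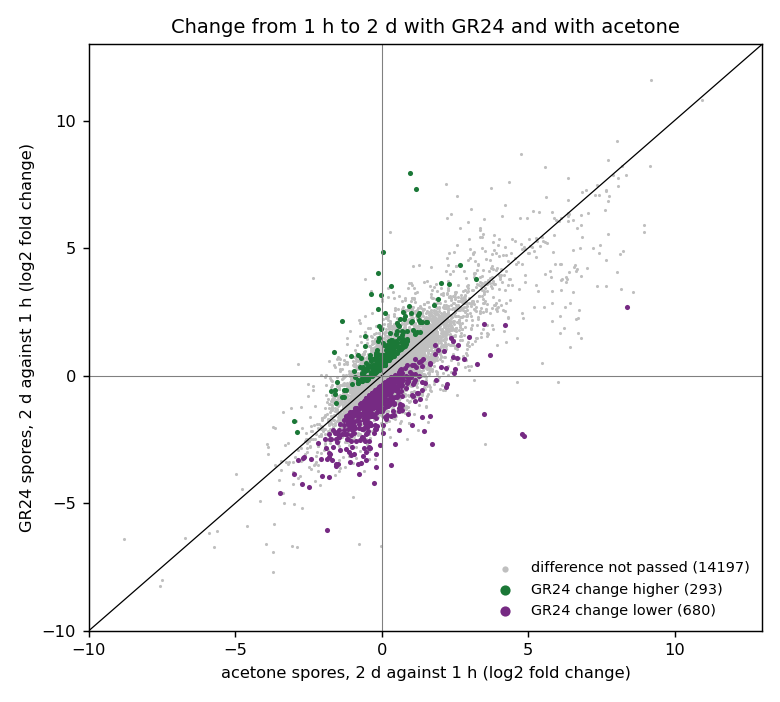
Each point is 1 of 15170 gene models, with its log2 fold change from 1 h to 2 d in acetone spores on the x axis and in GR24 spores on the y axis. Most points lie along the line of equal change, and the 680 models with a lower GR24 change (purple) lie mainly under it at negative GR24 values, while 293 lie above it (green).

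Among the steepest rises were models described as surface proteins, and these rose with and without GR24. A collagen-like model (347597) had no read in the GR24 libraries at 1 h and stood at 29.9 and 20.2 CPM at 2 d, which is at least 211-fold higher. In acetone it went from 0 reads to 16.0, 37.9 and 27.3 CPM, at least 169-fold higher. A LysM model (349023), of the domain that binds chitin and related sugars, had 1 read over the GR24 libraries at 1 h and stood at 37.7 and 23.8 CPM at 2 d. Its ratio was 771 with a 95% exact binomial interval from 138 to 3.05e+04, which covers counting error only, and its acetone levels at 2 d were 16.9, 47.6 and 34.5 CPM.

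A model described as a von Willebrand factor type cell surface antigen (349000) was much more abundant. It stood at 9.74, 8.88 and 14.5 CPM at 1 h and 599 and 401 CPM at 2 d with GR24, and at 9.45 and 10.1 and then 359, 832 and 556 CPM with acetone. The GR24 rise was 5.52 ± 0.460 (adjusted p = 8.11e-05), and the interaction was -0.38 ± 0.737 (adjusted p = 0.835). For these surface models the acetone and GR24 levels at 2 d overlapped.

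Other large rises were of proteins of chromatin and the spindle. A Polycomb group EED/ESC model (12972), part of the complex that methylates histone H3 to silence genes, went from 0.419, 0.329 and 0.658 CPM to 16.6 and 13.0 CPM (log2 change 4.96 ± 0.371). A SUMO protease of the Ulp1 family (25943), an enzyme that takes the small modifier SUMO off proteins, went from 1.05, 1.75 and 1.19 to 55.7 and 32.5 CPM. A kinesin motor (68162) rose by 4.80 ± 0.387 and a model with a domain named for targeting of Xklp2, a spindle motor in frogs (241521), rose by 5.29 ± 0.471. In each of these 4 models the GR24 libraries at 1 h and 2 d did not overlap, as was the case for 66.0% of all models tested. None of them passed the interaction, and each rose with acetone too, by 4.54 to 6.76 on the log2 scale.

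Among the steepest falls was a hemocyanin. The hemocyanin-like model (19555), related to the copper oxygen carriers and phenoloxidases of arthropods, stood at 54.0, 57.4 and 56.5 CPM at 1 h and 0.279 and 1.11 CPM at 2 d (log2 change -6.15 ± 0.271, adjusted p = 2.04e-15). Acetone spores went from 43.8 and 37.7 to 0.305, 0.556 and 1.04 CPM, a change of -5.91 ± 0.250. Several high mobility group (HMG) box models, DNA-binding proteins that bend DNA, fell: 14969 went from 34.0, 40.5 and 39.4 to 0.975 and 0.371 CPM and 349650 from 67.3, 65.4 and 59.9 to 4.88 and 7.61 CPM, and both fell with acetone as well. A ubiquitin model (13096) went from 45.4, 46.2 and 36.3 to 1.25 and 1.48 CPM, against 8.50 and 6.52 to 0.457, 0.371 and 0.416 CPM with acetone.

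Models without a described function changed as much. The undescribed 347197 had no read at 1 h and stood at 52.1 and 35.4 CPM at 2 d with GR24, at least 369-fold higher, and 189040 went from 0.314, 0.219 and 0.790 to 92.2 and 92.6 CPM. In the other direction, 29055 went from 208, 204 and 190.5 to 2.23 and 1.67 CPM, a fall that acetone spores shared (109 and 87.3 to 1.83, 2.50 and 1.15 CPM). In all, 28 models had no read in any GR24 library at 1 h and at least 1 CPM in both at 2 d. Of these, 16 also went from no read to at least 1 CPM in every library with acetone, 11 had a described function, and 2 passed the interaction. The reverse pattern, at least 1 CPM in every 1 h library and no read at 2 d, was seen in 5 models.

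The first hormone response was the part of the 1 h state that GR24 spores did not share with acetone spores. At 1 h 1223 models differed from acetone (8.06%), 843 of them higher with GR24 (5.56%) and 380 lower (2.50%). With upper-quartile scaling the split was 688 to 487. Of the higher, 242 were higher by at least 2-fold (1.60%). The values at 1 h chose these models and are given as a description. The 2 d levels of both treatments did not enter the contrast that made that choice. The 2 d libraries did share its filter, scaling and estimate of the spread. At 2 d, 51 of the 242 were still higher with GR24 and 191 did not pass, that is 21.1% higher, where 1.40% of all models tested were. DESeq2 and limma-voom called 37 and 44 of them higher, and none of the 3 tools called any lower, with 8 lower at an unadjusted p under 0.05. Their median effect was 1.74 on the log2 scale at 1 h and 0.32 at 2 d, with quartiles of -0.06 and 0.83 at 2 d, and 173 of the 242 lay above 0. Among the 51, 34 were at least 2-fold higher at 2 d as well. Without GR24 2 d replicate 3 the count still higher was 31.

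Among the 41 models at least 2-fold lower with GR24 at 1 h (0.270% of those tested), 0 were higher and 0 were lower at 2 d by edgeR, DESeq2 and limma-voom, with 2 lower at an unadjusted p under 0.05. Their median effect went from -1.30 to -0.12. Of all 380 models lower at 1 h, 12 were lower and 6 higher at 2 d, that is 3.16% and 1.58%, where 1.76% and 1.40% of all models were. For the models named below the interaction describes the size of the loss in these libraries. It holds values that took part in choosing models, so its size and adjusted p are given as a description. Where a model was chosen only by its effect at 1 h, the interaction uses those values once more and the 2 d effect does not. Others were chosen by the interaction, by the GR24 change from 1 h to 2 d, or after their 2 d effect was seen. For those the 2 d libraries took part in the choice, and the 2 d effect is given as a description.

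**Figure D2:**
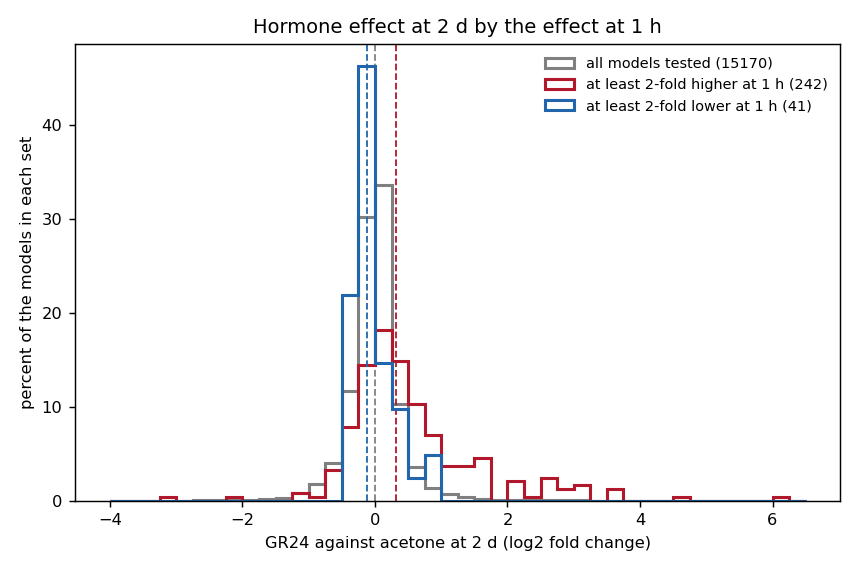
The x axis is the log2 fold change of GR24 against acetone at 2 d and the y axis the percent of models in each set, for all 15170 models (grey), the 242 at least 2-fold higher at 1 h (red) and the 41 at least 2-fold lower at 1 h (blue), with dashed lines at the medians. The red set has its median at 0.32 and a tail of models above 2, while the blue set has its median at -0.12.

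Type 11 methyltransferases, enzymes that move methyl groups from S-adenosylmethionine to small molecules or proteins, held some of the strongest first responses and fell. Model 20845 stood at 536, 533 and 399 CPM at 1 h with GR24 and at 41.2 and 46.0 CPM at 2 d, against 11.7 and 9.60 and then 3.50, 3.06 and 4.79 CPM with acetone. Its fall with GR24 was -3.48 ± 0.147 (adjusted p = 5e-10), the fall with acetone -1.49 ± 0.255, and the interaction -1.99 ± 0.307 (adjusted p = 0.00186). Even so its GR24 libraries at 2 d lay above every acetone library, with an effect of 3.53 ± 0.202 (adjusted p = 6.48e-07) after 5.52 at 1 h.

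Model 25998 went from 89.3, 92.5 and 77.0 to 11.1 and 10.7 CPM, and its effect from 5.66 to 3.22 (adjusted p = 5.08e-08 at 2 d). Model 79000 went from 71.3, 73.0 and 61.5 to 11.4 and 14.1 CPM, with effects of 4.24 and 2.50. Further down, 20568 went from 45.2, 43.9 and 39.9 to 3.76 and 3.43 CPM with an interaction of -3.38 ± 0.439. Its effect at 2 d, 1.54, did not pass without GR24 2 d replicate 3 (adjusted p = 0.0649). The model 347246, whose description also names an aminoacyl-tRNA synthetase domain, went from 131, 125 and 113 to 11.4 and 11.6 CPM. It was level with acetone at 2 d, where acetone stood at 11.7, 13.3 and 12.0 CPM and the effect was -0.11 ± 0.148 (adjusted p = 0.765).

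Over all models, 25.0% fell and 25.0% rose with GR24, and 18.6% and 19.5% with acetone. The interaction was lower in 4.48% of them and higher in 1.93%. The list shares below are given beside these. In the list of 68 methyltransferases tested, 28 fell (41.2%) and 14 rose (20.6%) with GR24 over this interval. With acetone 23 fell (33.8%) and 13 rose (19.1%), and the interaction was lower in 12 (17.6%) and higher in 1 (1.5%). The median change was -0.39 with GR24 and -0.13 with acetone, beside 0.02 over all models in both. Of the 11 members at least 2-fold higher at 1 h, 6 were still higher at 2 d (54.5%), beside 21.1% of all 242 such models.

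Cytochrome P450 enzymes are haem monooxygenases that oxidise small hydrophobic molecules. Of 137 tested, 50 fell (36.5%) and 29 rose (21.2%) with GR24, while 28 fell (20.4%) and 43 rose (31.4%) with acetone. The median change was -0.18 with GR24 and 0.17 with acetone, and the interaction was lower in 37 members (27.0%) and higher in 2 (1.5%). The lower count was 24 without acetone 1 h replicate 3. The summed level of the list was 16839.5, 16713.4 and 17145.8 CPM in the GR24 libraries at 1 h and 6773.4 and 7178.1 CPM at 2 d. In acetone it was 7547.6 and 7391.7 CPM at 1 h and 6833.2, 6293.5 and 6786.2 CPM at 2 d. Of the GR24 sums at 2 d, the lower lay among the acetone sums of that time and the other above them.

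A large part of that sum came from 1 model, 347608, of the CYP2 type. It stood at 8041, 7892 and 7872 CPM at 1 h and 702 and 741 CPM at 2 d with GR24, and at 1183 and 1033 and then 117, 125 and 118 CPM with acetone. Its fall with GR24, -3.46 ± 0.0780, was close to its fall with acetone, -3.20 ± 0.0690, and the interaction was -0.26 ± 0.0960 (adjusted p = 0.12). The hormone effect was 2.84 at 1 h and 2.58 ± 0.0690 at 2 d (adjusted p = 6.06e-19). In this model the level fell steeply in both treatments, and every GR24 library stayed above every acetone library of the same time.

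Other P450 models lost the effect itself. Model 340357 went from 269, 268 and 299 to 30.2 and 27.0 CPM with GR24 and from 85.7 and 102 to 28.2, 27.5 and 31.3 CPM with acetone. Its GR24 and acetone libraries overlapped at 2 d, the effect there was -0.03 ± 0.108 (adjusted p = 0.928), and the interaction was -1.60 ± 0.139 (adjusted p = 3.26e-08). Model 19698 went from 188, 202 and 209 to 46.8 and 41.5 CPM, with an effect of 2.27 at 1 h and 0.56 at 2 d. Model 345274 kept more of it, going from 185, 170.3 and 165 to 33.7 and 31.2 CPM with effects of 3.61 and 2.65. Of the 29 P450 models at least 2-fold higher at 1 h, 9 were higher at 2 d (31.0%), beside 21.1% of all 242 such models. The median effect of the 29 went from 1.98 to 0.54.

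Transporters of the response fell as well. The ABC transporter 290312, of the breast cancer resistance protein type that pumps drugs and lipids out of cells, stood at 1224, 1136 and 1239 CPM at 1 h and 278 and 292 CPM at 2 d. Acetone spores stood at 312 and 302 and then 211, 187 and 212 CPM. The interaction was -1.48 ± 0.103 (adjusted p = 5.98e-10), and an effect of 0.49 ± 0.0720 was left at 2 d (adjusted p = 0.000215). Its relative 22144 went from 55.2, 55.1 and 61.7 to 4.04 and 3.80 CPM and was level with acetone at 2 d (3.81, 3.24 and 6.66 CPM). The major facilitators 3690 and 193343, carriers that use ion gradients, had interactions of -1.28 ± 0.152 and -1.51 ± 0.151 and kept effects of 0.85 and 0.76 at 2 d.

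In the list of 46 ABC and multidrug transporters, 19 fell (41.3%) and 11 rose (23.9%) with GR24, and 18 fell (39.1%) and 9 rose (19.6%) with acetone. The interaction was lower in 11 (23.9%) and higher in 0 (2 at an unadjusted p under 0.05, and 0 by DESeq2 and limma-voom). That 11 was 7 with upper-quartile scaling, 5 without acetone 1 h replicate 3, 6 without acetone 1 h replicate 2, 6 without GR24 2 d replicate 1 and 7 without GR24 2 d replicate 3. Of 58 major facilitators, 25 fell (43.1%) and 15 rose (25.9%) with GR24, and 22 fell (37.9%) and 14 rose (24.1%) with acetone. Their interaction was lower in 8 (13.8%) and higher in 2 (3.4%). Neither count was reached in every fit with a library left out. Of the 7 ABC models at least 2-fold higher at 1 h, 5 were higher at 2 d, and of the 4 facilitators, 3 were. Glutathione S-transferases couple glutathione to oxidised molecules in detoxification. Of 27 tested, 11 rose (40.7%) and 6 fell (22.2%) with GR24, and 11 rose (40.7%) and 3 fell (11.1%) with acetone. The interaction passed in 0 by edgeR, DESeq2 and limma-voom alike, with 4 lower at an unadjusted p under 0.05.

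The alpha/beta hydrolase 346819, an esterase-like enzyme described as an arylacetamide deacetylase, stood at 288, 307 and 288 CPM at 1 h and 23.5 and 29.7 CPM at 2 d. Acetone spores stood at 9.97 and 10.7 and then 2.74, 3.89 and 3.64 CPM. The fall was -3.45 ± 0.105 with GR24 and -1.55 ± 0.173 with acetone, the interaction -1.90 ± 0.211 (adjusted p = 1.83e-06), and the effect 4.83 at 1 h and 2.93 ± 0.146 at 2 d.

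Some regulators of the first response returned close to the acetone level. A C2H2 zinc finger model (73753), a DNA-binding protein type, stood at 108, 126 and 107 CPM at 1 h and 12.3 and 13.3 CPM at 2 d, against 13.3 and 16.2 and then 8.68, 11.3 and 7.91 CPM with acetone. Its interaction was -2.50 ± 0.220 (adjusted p = 3.55e-08). Both GR24 libraries at 2 d still lay above every acetone library of that time. The effect there did not pass in the main fit and ran from 0.33 to 0.64 over the alternatives. A kinase with Sel1 repeats (175302) went from 380.3, 323 and 331 to 58.4 and 58.9 CPM, and acetone spores from 72.4 and 80.5 to 54.4, 59.5 and 56.5 CPM. Its effect at 2 d was 0.04 ± 0.0880 (adjusted p = 0.859), and the interaction -2.13 ± 0.122 (adjusted p = 2.24e-11). The RNA polymerase I factor UAF (133235), which in yeast helps to start ribosomal RNA synthesis, went from 135, 110.3 and 104 to 46.9 and 41.5 CPM while acetone spores stayed between 50.6 and 56.9 CPM.

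The HMG box model 25795 went from 12.5, 18.4 and 15.9 CPM to 0 and 0.371 CPM, with 1.26 and 0.985 and then 0.305, 0.463 and 0.104 CPM in acetone. Its interaction of -4.17 ± 1.00 (adjusted p = 0.011) did not pass without acetone 2 d replicate 2 (-3.53, adjusted p = 0.133). HMG-CoA reductase (199248), the controlling enzyme of sterol synthesis, stood at 136, 143 and 143 CPM and then 43.3 and 46.0 CPM with GR24, and at 61.7 and 54.6 and then 38.2, 39.0 and 38.4 CPM with acetone. The interaction was -1.06 ± 0.131 (adjusted p = 9.52e-06), and at 2 d the effect was 0.21 ± 0.0960 (adjusted p = 0.24).

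**Figure D3:**
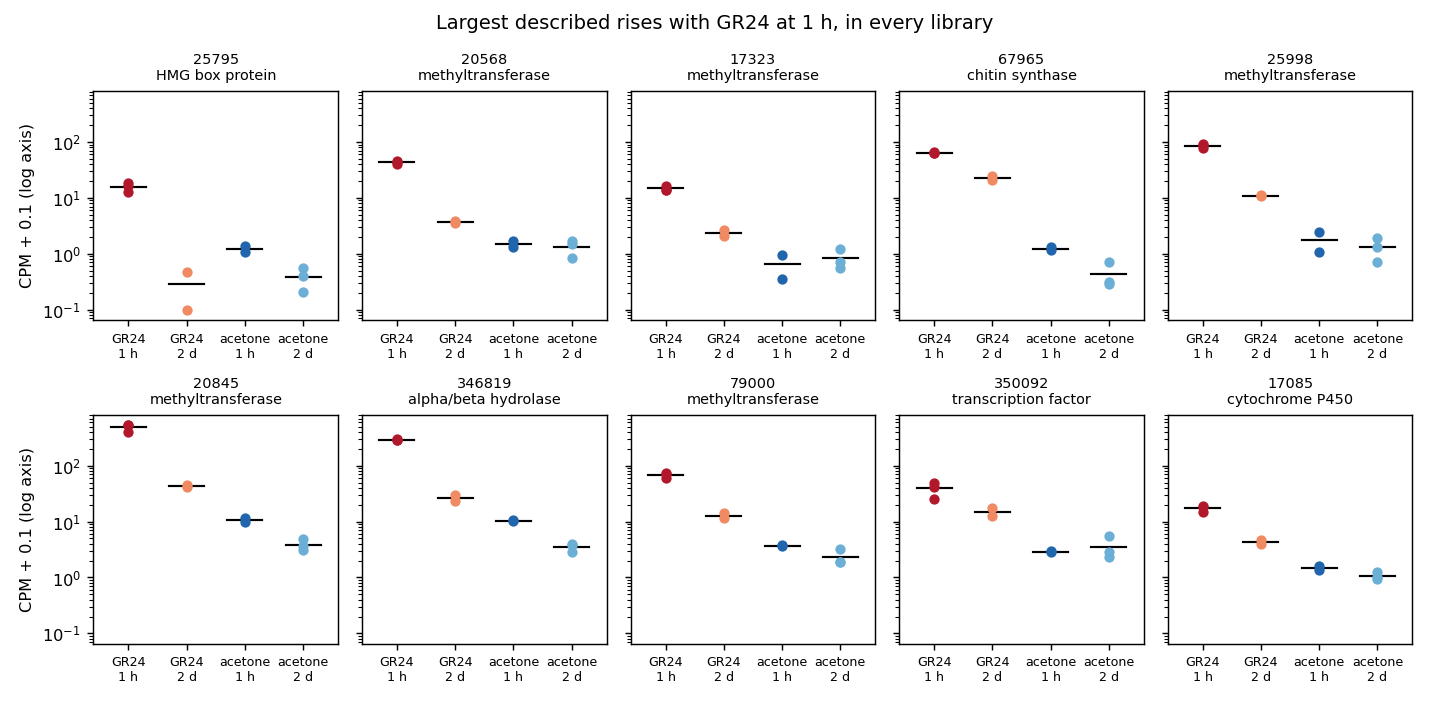
CPM plus 0.1 on a log axis for the 10 described models with the largest rise at 1 h of GR24, with 1 point per library and a bar at the group mean. In all 10 the GR24 libraries at 2 d lie under those at 1 h, and for 67965 the GR24 effect was 5.82 at 1 h and 6.20 at 2 d.

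A few models kept their hormone effect through 2 d. The chitin synthase 67965, which makes the cell wall polymer chitin, stood at 62.8, 64.1 and 67.0 CPM at 1 h and 20.8 and 24.9 CPM at 2 d with GR24, and at 1.05 and 1.23 and then 0.609, 0.185 and 0.208 CPM with acetone. Its fall of -1.49 ± 0.145 with GR24 (adjusted p = 5.14e-09) ran beside a fall of -1.88 ± 0.509 with acetone. The effect was 5.82 at 1 h and 6.20 ± 0.275 at 2 d (adjusted p = 2.54e-14), and the interaction did not pass (0.39 ± 0.500, adjusted p = 0.734).

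Glucosamine-phosphate N-acetyltransferase (27492), an enzyme that makes the sugar precursor of chitin, was another such model. It stood at 41.3, 39.1 and 41.7 CPM at 1 h and 37.6 and 40.0 CPM at 2 d, against 12.1 and 13.4 and then 14.5, 13.7 and 16.2 CPM with acetone. The GR24 change was -0.07 ± 0.127 (adjusted p = 0.69), and the effect was 1.68 and then 1.39 ± 0.134 (adjusted p = 2.82e-07). This model, the ligase 350230 and the undescribed 349160 below were named after their values were seen.

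The RING-type E3 ubiquitin ligase 350230, an enzyme that marks proteins for breakdown, went from 876, 822 and 892 to 433 and 439.7 CPM with GR24 and from 162 and 156 to 90.2, 74.7 and 79.5 CPM with acetone. Its interaction was -0.01 ± 0.107 (adjusted p = 0.963), with effects of 2.44 and 2.43. The undescribed 349160 stood at 182, 179 and 159.8 CPM and then 149 and 156 CPM, against 33.7 and 32.7 and then 23.9, 23.9 and 22.6 CPM with acetone. A model that did not pass the interaction is not thereby shown to have kept its effect whole. The standard errors of the interaction of 67965, 27492, 350230 and 349160 ranged from 0.107 to 0.500.

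Several models lower with GR24 than with acetone at 1 h were close to acetone at 2 d. The CBF1/Su(H) type DNA-binding model 343820, whose animal relatives act in Notch signalling, stood at 43.4, 45.1 and 69.8 CPM at 1 h and 159 and 147 CPM at 2 d with GR24. With acetone it stood at 231 and 251 and then 168, 159 and 166 CPM, so that the treatments stood far apart at 1 h and next to each other at 2 d. The GR24 change was 1.55 ± 0.167, the acetone change -0.56 ± 0.157 and the interaction 2.10 ± 0.229 (adjusted p = 0.00078). The ubiquitin model 68287 went from 3.14, 4.38 and 6.58 to 15.2 and 14.6 CPM (interaction 1.38 ± 0.297, adjusted p = 0.00455), and the EF2 kinase family model 20914 from 6.18, 6.36 and 7.50 to 38.7 and 34.3 CPM (interaction 1.18 ± 0.208, adjusted p = 0.000667).

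A C2H2 zinc finger model (336739) went from 3.35, 3.29 and 2.24 to 34.0 and 40.8 CPM, with 6.93 and 8.74 and then 35.5, 25.4 and 35.4 CPM in acetone, and an interaction of 1.61 ± 0.296. The CYP2 type P450 model 337901 rose, from 60.2, 59.4 and 61.1 to 265 and 276 CPM with GR24 and from 118 and 134 to 347, 287 and 292 CPM with acetone. Its interaction was 0.88 ± 0.116 (adjusted p = 2e-05). A laminin-like model (348578) rose with GR24, from 43.2, 48.4 and 63.2 to 69.8 and 75.8 CPM, a call that was lost without GR24 2 d replicate 3 (0.44, adjusted p = 0.0918), and fell with acetone, from 120.0 and 134 to 102, 78.9 and 82.5 CPM.

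Histones and DNA replication genes were higher in a larger share of members than the 25.0% of all models. Of 20 histone models tested, the proteins that package DNA, 13 rose (65.0%) and 1 fell (5.0%) with GR24. With acetone 10 rose (50.0%) and 2 fell (10.0%), and the medians were 0.83 with GR24 and 0.53 with acetone. A histone H3 variant (334831) went from 11.7, 11.4 and 9.74 to 57.0 and 44.8 CPM with GR24 and from 11.8 and 13.5 to 25.7, 43.5 and 33.5 CPM with acetone. A histone H2A variant (340095) rose by 1.05 ± 0.102 and a histone H2B (77267) by 0.64 ± 0.0700, whereas histone H1 (97060), the linker that closes chromatin, went from 51.2, 60.6 and 63.0 to 21.7 and 24.5 CPM. The interaction passed in 0 of the 20 by edgeR, DESeq2 and limma-voom, with 5 higher at an unadjusted p under 0.05.

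Of 72 DNA replication models, 39 rose (54.2%) and 12 fell (16.7%) with GR24, and 23 rose (31.9%) and 11 fell (15.3%) with acetone. DNA topoisomerase II (141416), which untangles chromosomes, went from 10.3, 10.4 and 11.3 to 160.4 and 127 CPM, and acetone spores from 7.14 and 8.86 to 72.7, 118 and 104 CPM. Origin recognition complex subunit 4 (27365), which marks where replication starts, rose by 1.63 ± 0.158, while topoisomerase I (143932), which relaxes DNA during transcription, had a change of -0.92 ± 0.0700. In the list of mitosis and cell cycle genes, 53 of 139 rose (38.1%) and 37 fell (26.6%) with GR24, against 40 (28.8%) and 27 (19.4%) with acetone. Without GR24 2 d replicate 1 the GR24 calls were 36 and 32, and without acetone 1 h replicate 2 the 40 was 23. A cyclin (346645) went from 162, 164 and 189 to 406 and 452 CPM and a spindle pole body protein (346464) rose by 1.60 ± 0.110. A septin (225791), a filament protein of cell division, went from 525, 527 and 484 to 266 and 288 CPM.

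RNA silencing proteins, which use small RNAs to switch genes off, had 32 of 58 members higher at 2 d with GR24 (55.2%). Another 10 were lower (17.2%), and the median of the list was 0.51. With acetone 26 rose (44.8%) and 9 fell (15.5%), with a median of 0.23. Interactions called higher made up 10.3% of the list and those called lower 3.4%. The interaction was higher in 6 and lower in 2, and the 6 was 3 without acetone 1 h replicate 2 or 3. The argonaute 3847, a slicer that carries the small RNA, went from 4.61, 6.03 and 5.92 to 54.2 and 52.7 CPM with GR24 and from 5.67 and 6.03 to 50.7, 41.9 and 39.1 CPM with acetone. Another argonaute (14399) went from 0.628, 0.438 and 0.790 to 21.7 and 14.9 CPM. An RNA-directed RNA polymerase of the QDE-1 type (256897), named for a silencing gene of Neurospora, went from 7.12, 8.77 and 8.56 to 55.1 and 55.4 CPM, with an interaction of 0.99 ± 0.207 (adjusted p = 0.00378). A model (311507) whose description names both Dicer, the enzyme that cuts double-stranded RNA into small RNAs, and a metallophosphoesterase went the other way and had a log2 change of -1.03 ± 0.0870.

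In the lists of protein synthesis more members fell than rose in both treatments. Of 85 proteins of the cytosolic ribosome (40S and 60S), 48 fell (56.5%) and 7 rose (8.2%) with GR24. With acetone 59 fell (69.4%) and 4 rose (4.7%), and the medians were -0.22 with GR24 and -0.36 with acetone. With the 2% most abundant models left out, which removes members, the falls were 19 and 23. The ribosomal protein L31 (338159) went from 361, 351 and 352 to 218 and 203 CPM and a 40S protein of the S4 family (243676) from 699, 704 and 695 to 449 and 423 CPM, whereas a ubiquitin and L40 fusion (18169) rose by 1.87 ± 0.197. Ribosome biogenesis, the making of ribosomes in the nucleolus, had 51 of 88 members lower (58.0%) and 7 higher (8.0%) with GR24. Under upper-quartile scaling 11 were higher. With acetone 48 were lower (54.5%) and 6 higher (6.8%). The rRNA cytosine methylase NOP2 (339482) went from 307, 311 and 294 to 99.0 and 106 CPM with GR24 and from 218 and 202 to 95.7, 109 and 94.2 CPM with acetone, with an interaction of -0.49 ± 0.107 (adjusted p = 0.00508).

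Among 162 translation factors and tRNA synthetases, 67 fell (41.4%) and 22 rose (13.6%) with GR24. With acetone 66 fell (40.7%) and 11 rose (6.8%). The 11 was smaller with either acetone 1 h library left out. The scaffold factor eIF-4G (347831), which joins messenger RNA to the ribosome, went from 1283, 1278 and 1393 to 725 and 712 CPM. Elongation factor EF-1 alpha (348225), which brings tRNA to the ribosome, was among the 10 described models with the highest level per kilobase, and went from 4875, 5221 and 5712 to 3937 and 4232 CPM. Another of these 10, a reverse transcriptase model (349400), of the kind coded by mobile elements, went from 7680.0, 7005 and 7902 to 2764 and 2780.0 CPM with GR24 and from 7149 and 7280.0 to 3266, 3283 and 3727 CPM with acetone.

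Genes for the use of reserves moved in both directions. Of 80 models for fatty acid beta-oxidation and peroxisomes, which break stored lipid down, 35 fell (43.8%) and 13 rose (16.2%) with GR24. With acetone 29 fell (36.2%) and 10 rose (12.5%). With upper-quartile scaling the GR24 calls were 25 lower and 22 higher. The peroxisomal multifunctional beta-oxidation enzyme (226818) went from 663, 681 and 582 to 205 and 222 CPM with GR24 and from 624 and 592 to 201, 190.5 and 191 CPM with acetone. Of 13 trehalose and glycogen models, the enzymes of sugar reserves, 8 rose (61.5%) and 1 fell (7.7%) with GR24. With acetone 4 rose (30.8%) and 3 fell (23.1%). The interaction was higher in 23.1% of the 13 and lower in 7.7%. That higher share was not reached in every fit with a library left out. The 8 was 5 without GR24 2 d replicate 3, and the 3 was 1 without acetone 1 h replicate 2. A trehalose-6-phosphate synthase type model (78378) went from 78.1, 84.3 and 94.6 to 162 and 180.2 CPM with GR24 and from 117 and 125 to 156, 141 and 131 CPM with acetone (interaction 0.76 ± 0.125, adjusted p = 0.000315). A glycogen synthase (340811) went from 224, 236 and 244 to 378 and 457 CPM, and a second glycogen synthase model (32477) from 56.5, 52.3 and 57.8 to 22.6 and 26.2 CPM.

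Of 30 models of the tricarboxylic acid and glyoxylate cycles, which burn acetyl units or turn them into sugar, 11 rose (36.7%) with GR24. Another 4 fell (13.3%), and with acetone 5 rose (16.7%) and 7 fell (23.3%). The interaction was higher in 16.7% of the list and lower in 3.3%, beside 1.9% and 4.5% of all models. That higher share was not reached in every fit with a library left out. The 11 was 7 without GR24 2 d replicate 3, and the 4 was 1 with the 2% most abundant models left out, which removes members. The aconitase 343887 went from 919.8, 937 and 1002 to 1329 and 1342 CPM, while a malate dehydrogenase (335555) went from 1971, 2141 and 2212 to 661 and 801 CPM and fell with acetone alike (-1.62 ± 0.0770). In glycolysis 7 of 25 rose (28.0%) and 10 fell (40.0%) with GR24, and 5 (20.0%) and 9 (36.0%) with acetone. Fructose bisphosphate aldolase (342510) went from 1194, 1143 and 1188 to 690.0 and 716 CPM, and a phosphoglycerate mutase (343340) from 131, 119 and 116 to 68.8 and 61.1 CPM with an interaction of -0.83 ± 0.125 (adjusted p = 0.000104). Under upper-quartile scaling the glycolysis calls were 8 higher and 7 lower.

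Among lipid genes, 34 of 81 lipases and phospholipases rose (42.0%) and 24 fell (29.6%) with GR24, against 27 (33.3%) and 19 (23.5%) with acetone. A lysophospholipase (349215) went from 118, 126 and 119 to 242 and 242 CPM, while a class 3 lipase (247214), of the kind that frees fatty acids from stored fat, went from 412, 446 and 432 to 178 and 165 CPM. In the list of fatty acid, desaturase and sterol synthesis, 23 of 58 rose (39.7%) and 18 fell (31.0%) with GR24. With acetone 15 rose (25.9%) and 16 fell (27.6%). A desaturase with a cytochrome b5 domain (340272), an enzyme that puts double bonds into fatty acids, went from 135, 146 and 167 to 547 and 635 CPM and from 173 and 173 to 754, 569 and 649.9 CPM with acetone.

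Chitin and glucan cell wall enzymes had 14 of 28 members lower (50.0%) and 6 higher (21.4%) with GR24, and 11 (39.3%) and 6 (21.4%) with acetone. The 6 with GR24 was 3 without GR24 2 d replicate 3. The abundant chitin synthase 68147 went from 376, 419 and 389 to 218 and 240.3 CPM with no hormone effect called at either time, unlike 67965. A chitinase with a chitin-binding domain (85061) went from 57.5, 60.9 and 62.1 to 23.1 and 26.4 CPM with GR24 and from 65.2 and 67.3 to 35.0, 41.2 and 40.2 CPM with acetone, with a GR24 effect of -0.65 ± 0.117 at 2 d (adjusted p = 0.00207). A polysaccharide deacetylase (25335), of the enzymes that turn chitin into chitosan, was lower there as well, with an effect of -0.59 ± 0.0940 (adjusted p = 0.000529).

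Of 14 uptake carriers for phosphate, nitrate and ammonium, 4 rose (28.6%) and 5 fell (35.7%) with GR24, and 5 (35.7%) and 6 (42.9%) with acetone. An ammonium transporter (218287) went from 34.9, 35.8 and 31.6 to 104 and 122 CPM, and an inorganic phosphate transporter (345640) from 356, 364 and 432 to 122 and 143 CPM, with acetone at 296 and 253 and then 115, 104 and 119 CPM. A carrier described as a nitrate transporter (30566) stood at 112, 111 and 90.2 CPM and then 28.1 and 34.0 CPM with GR24, and at 38.5 and 35.9 and then 15.8, 18.9 and 19.9 CPM with acetone. Its effect was 1.49 at 1 h and 0.77 ± 0.134 at 2 d (adjusted p = 0.00141).

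In the vesicle traffic list 106 of 226 members fell (46.9%) and 41 rose (18.1%) with GR24, and 85 (37.6%) and 28 (12.4%) with acetone. Interactions called lower made up 7.1% of the list and those called higher 1.3%. The interaction was lower in 16 and higher in 3, and the 16 was 4 without GR24 2 d replicate 3 or acetone 1 h replicate 3, 5 without acetone 2 d replicate 3, 6 without GR24 1 h replicate 1, 8 without acetone 1 h replicate 2 and 9 without GR24 2 d replicate 1. The 3 was 0 without GR24 2 d replicate 3 or acetone 1 h replicate 3 and 1 without acetone 1 h replicate 2. A tethering protein of the p115 type (342198), which holds vesicles at the Golgi, and which is also described as a methyltransferase, went from 352, 344 and 364 to 94.8 and 101 CPM, against 395 and 360.2 and then 96.9, 109.7 and 115 CPM with acetone, and the alpha-SNAP model 17408, which recycles the fusion machinery, rose from 11.0, 10.1 and 12.5 to 43.3 and 43.2 CPM. Of 155 actin, tubulin and motor models, 60 fell (38.7%) and 40 rose (25.8%) with GR24, and 53 (34.2%) and 21 (13.5%) with acetone. With upper-quartile scaling the GR24 calls were 49 and 48. A beta tubulin (343146), the subunit of microtubules, went from 1975, 2226 and 2155 to 873 and 962 CPM, and a gelsolin (334739), which cuts actin filaments, from 176, 167 and 168 to 355 and 387 CPM.

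In protein care the lists were split. Of 123 HSP70 chaperones, 41 rose (33.3%) and 29 fell (23.6%) with GR24, and 38 (30.9%) and 22 (17.9%) with acetone. The abundant HSP70 336188 went from 1496, 1484 and 1677 to 3490.0 and 3960.0 CPM with GR24 and from 1756 and 2055 to 3483, 3273 and 3288 CPM with acetone, with an interaction of 0.45 ± 0.108 (adjusted p = 0.011). Of 130 other chaperones 33 rose (25.4%) and 45 fell (34.6%), and of 94 proteasome and ubiquitin-conjugating models 18 rose (19.1%) and 27 fell (28.7%). Under upper-quartile scaling these became 44 against 30 and 26 against 19, so no direction is given for either list. Peptidases had 16 of 69 higher (23.2%) and 15 lower (21.7%), near the 25.0% of all models in each direction, and 26 and 9 under upper-quartile scaling.

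Antioxidant enzymes had 10 of 27 members higher (37.0%) and 6 lower (22.2%) with GR24, and 6 (22.2%) and 8 (29.6%) with acetone. The medians of the list were -0.05 with GR24 and 0.06 with acetone. Its interaction was higher in 2 (7.4%) and lower in 2 (7.4%), so the counts give no direction between the treatments. The copper and zinc superoxide dismutase (337454), which removes superoxide, went from 422, 458 and 464 to 980.2 and 1045 CPM with GR24 and from 465 and 487 to 990.5, 861 and 894 CPM with acetone. Of 50 calcium signalling models 15 rose (30.0%) and 12 fell (24.0%) with GR24, near the 25.0% of all models in each direction. A calmodulin type model (26303), a calcium sensor, went from 8.48, 14.1 and 12.8 to 32.2 and 38.2 CPM with GR24 and from 15.2 and 12.4 to 20.7, 20.7 and 25.0 CPM with acetone (interaction 0.91 ± 0.259, adjusted p = 0.034). Of 363 transcription factors, 117 rose (32.2%) and 96 fell (26.4%) with GR24 and 91 (25.1%) and 67 (18.5%) with acetone.

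This fungus has large families of repeat proteins. Of 467 Sel1 repeat proteins, helical scaffold repeats that are often joined to kinase domains here, 117 fell (25.1%) and 49 rose (10.5%) with GR24. With acetone 55 fell (11.8%) and 62 rose (13.3%). The share of GR24 falls was near the 25.0% of all models, and the share of rises was below the 25.0% of all models. The 117 was 73 without GR24 2 d replicate 3, and the 62 was 33 without acetone 1 h replicate 2 or 3. The medians were -0.13 and 0.09, and the interaction was lower in 22 and higher in 0 (11 at an unadjusted p under 0.05, and 0 by DESeq2 and limma-voom). These are 4.7% and 0.0% of the list, beside 4.5% and 1.9% of all models, so the lower share was near that of all models. The 22 was 8 without acetone 1 h replicate 2, 11 without acetone 1 h replicate 3, 11 without GR24 2 d replicate 3 and 14 without GR24 1 h replicate 1. Of the 9 members at least 2-fold higher at 1 h, 0 were higher at 2 d by the 3 tools, and 1 was at an unadjusted p under 0.05. Over all 242 such models 21.1% were higher at 2 d by edgeR.

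The kinases 8127 and 2534 of this list went from 336, 277 and 276 to 67.1 and 68.6 CPM and from 129, 114 and 106 to 33.4 and 32.6 CPM with GR24. For 2534 the acetone level went from 48.3 and 57.6 to 33.2, 35.3 and 37.6 CPM, and the interaction was -1.24 ± 0.157 (adjusted p = 1.2e-05). Of 673 kelch and BTB proteins, repeats and adaptors that often serve ubiquitin ligases, 183 rose (27.2%) and 104 fell (15.5%) with GR24. With acetone 144 rose (21.4%) and 74 fell (11.0%). The shares of rises were near the 25.0% and 19.5% of all models. The kelch model 341560 went from 134, 139 and 143 to 587 and 599 CPM with GR24 and from 229.5 and 222 to 688, 580.3 and 657 CPM with acetone. Of 118 HMG box proteins 41 rose (34.7%) and 36 fell (30.5%) with GR24, and 39 (33.1%) and 20 (16.9%) with acetone.

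**Figure D4:**
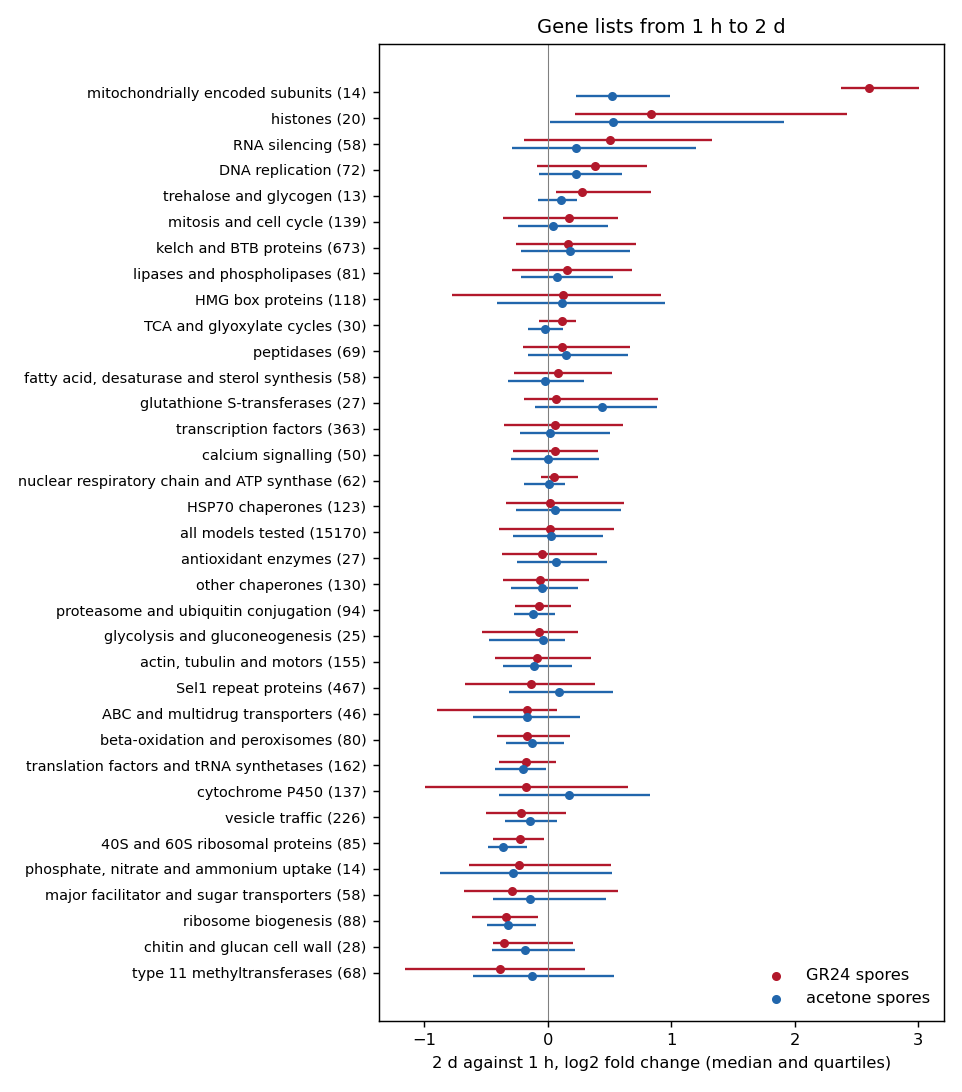
Median log2 fold change from 1 h to 2 d, with lines from the lower to the upper quartile, over the tested members of each gene list (number in parentheses), for GR24 spores (red) and acetone spores (blue). The mitochondrially encoded subunits stand apart at 2.60 with GR24, and cytochrome P450 and Sel1 repeat proteins have medians under 0 with GR24 and above 0 with acetone.

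Other models among the 10 with the highest level per kilobase moved in both directions. A thioredoxin (209220), a small protein that reduces disulfide bonds, went from 667, 648 and 609 to 1290.0 and 1346 CPM with GR24 and from 629 and 628 to 1437, 1269 and 1360.0 CPM with acetone. A ubiquitin model (343410) went from 5184, 5926 and 5896 to 3667 and 4134 CPM and an RNA-binding model with an RRM domain (335779) from 2636, 2982 and 2528 to 1612 and 1928 CPM. Their changes with GR24 were 1.04 ± 0.0680, -0.54 ± 0.0710 and -0.62 ± 0.0800, with adjusted p-values of 3.68e-12, 7.52e-07 and 7.17e-07.

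Subunits of the respiratory chain are encoded partly in the nucleus and partly in the mitochondrion. Of 62 nuclear-encoded subunits of the respiratory chain and ATP synthase, 20 rose (32.3%) and 9 fell (14.5%) with GR24. With acetone 8 rose (12.9%) and 13 fell (21.0%), and the medians were 0.05 with GR24 and 0.01 with acetone. The interaction was higher in 1 (1.6%) and lower in 1 (1.6%), beside 1.9% and 4.5% of all models. Cytochrome c oxidase subunit VIb (336580) went from 60.6, 69.6 and 65.4 to 106 and 112 CPM with GR24, and the NDUFS4 subunit of complex I (341977) went from 61.8, 58.0 and 59.6 to 28.6 and 19.5 CPM. Without GR24 2 d replicate 3 the 20 was 10 and the 9 was 4. The 13 with acetone was 4, 6 and 8 without acetone 1 h replicate 2, 1 h replicate 3 and 2 d replicate 1.

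Of 14 tested models for subunits that the mitochondrial genome encodes, 13 rose (92.9%) and 0 fell with GR24. With acetone 0 rose and 0 fell, and the medians were 2.60 with GR24 and 0.52 with acetone. At an unadjusted p under 0.05, 1 rose with acetone, while DESeq2 and limma-voom called 0 there and 13 and 14 rises with GR24. Their summed level was 11.1, 57.1 and 16.6 CPM in the GR24 libraries at 1 h and 172.8 and 178.2 CPM at 2 d. In acetone it was 25.4 and 44.7 CPM at 1 h and 71.9, 30.0 and 52.8 CPM at 2 d. Both GR24 libraries at 2 d thus stood above the other 8. Cytochrome b (38829) stood at 3.14, 12.2 and 4.47 CPM at 1 h and 25.6 and 29.0 CPM at 2 d, against 4.62 and 9.11 and then 8.68, 5.84 and 9.68 CPM with acetone. Cytochrome c oxidase subunit I (337841) was the only member to pass the interaction (2.04 ± 0.576, adjusted p = 0.0373). The count was 6 by limma-voom, and DESeq2 gave 337841 no adjusted p.

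GR24 1 h replicate 2 stood above the other libraries of its group. Without it 14 members rose, with a median of 4.02, and the interaction passed in 9, while it passed in 0 without GR24 1 h replicate 1 or 3, either GR24 2 d library, acetone 1 h replicate 3 or acetone 2 d replicate 2 or 3. The count of rises was 10 without GR24 2 d replicate 3 and 9 with the replicate number as a block. These transcripts make up a small part of poly-A selected RNA. A pair of undescribed models (247407 and 336851), all of whose reads match more than 1 model, moved with them between libraries. Model 247407 stood at 185, 1313 and 249 CPM at 1 h and 3419 and 3472 CPM at 2 d with GR24, and at 549 and 909 and then 1685, 932 and 1398 CPM with acetone. The share of all reads matching several models was 0.122% to 0.337% in the GR24 libraries at 1 h and 0.790% to 0.807% at 2 d. The part of these reads in the mitochondrial result was not tested.

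**Figure D5:**
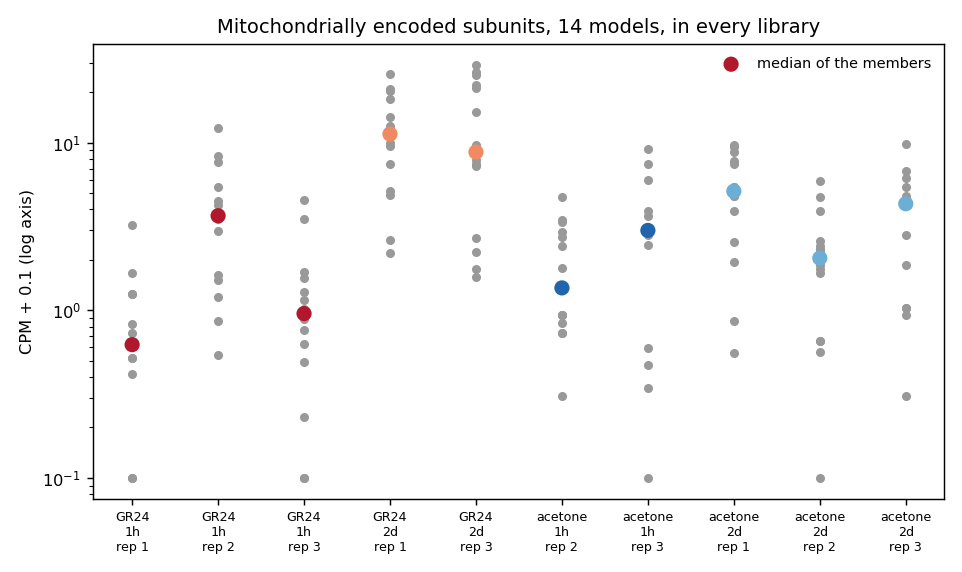
CPM plus 0.1 on a log axis of the 14 mitochondrially encoded models (grey points) in each of the 10 libraries, with the median of the members as a large point. The medians of both GR24 libraries at 2 d lie above all others, and that of GR24 1 h replicate 2 lies above the other 2 libraries of its group.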

How the data were processed

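The deposited tables list total gene reads, a read count made by the authors that includes reads matching several models, unique gene reads, a count of reads matching 1 model, and RPKM, which the authors scaled by gene length and library size, per the file headers. The aligner is not given in the sources used here. The authors' further deposited columns were not used.

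Total gene reads of 10 libraries (GR24 1 h 3, GR24 2 d 2, acetone 1 h 2, acetone 2 d 3) were joined by model and fitted together with edgeR 4.0.16 in R 4.3.3: filterByExpr by group, TMM scaling, robust quasi-likelihood, 2-sided tests of 5 contrasts, Benjamini-Hochberg adjustment at 0.05 over all 15170 models tested. GR24 2 d replicate 2 and acetone 1 h replicate 1 were not analysed here. Levels are TMM-scaled CPM. The pipeline was tested on simulated data in which 200 models of at least 5 CPM were changed 2-fold at GR24 2 d and no other changed. For the GR24 change 90.5% of them were recovered and 11.3% of the calls were false. For the interaction 68.0% were recovered and 8.1% of the calls were false. Both false shares were above the 0.05 set by the adjustment. In the real data 50.0% of models were called for the GR24 change, and its 2-fold rises had a median of 4.57 CPM. The simulated rates therefore do not carry over to these data. No 2 libraries of a group were duplicates (chi-square per degree of freedom 2.91 to 8.19 over 8 pairs, where resampled reads would give 1). Intervals and the floor of 3 reads over a group cover counting error only.

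The 34 gene lists were made by keywords in the descriptions and narrowed by description after the tables were read. Members and lists were chosen with earlier results of these data known. Described models were named by size of change (12 per direction with at least 10 CPM in the higher group and groups not overlapping, 3 undescribed), by interaction, by effect at 1 h, by p within each list and by level per kilobase, and the text prints fewer than these. Models that kept an effect of at least 2-fold at 2 d, the mitochondrially encoded members and the pair with most shared reads were added after their values were seen. Alternatives were DESeq2 1.42.0, limma-voom (limma 3.58.1), other scalings and filters, unique reads, fits on fewer groups, the replicate number as a block, each library left out, and the most abundant 2% of models left out.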

Additional observations from a re-analysis of the deposited data

Results flagged for a closer look

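The change from 1 h to 2 d differed between GR24 and acetone spores, by the interaction in edgeR's quasi-likelihood fit, for 973 models, and these named models are among them. All values here are the GR24 change minus the acetone change on the log2 scale.

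Among the methyltransferases the difference was -3.38 for 20568, -3.10 for 17323, -2.71 for 347246, -2.44 for 25998, -1.99 for 20845 and -1.73 for 79000. Among the P450 enzymes it was -1.54 for 17085, -1.30 for 54640, -0.97 for 345126 and -0.96 for 345274. It was -4.17 for the HMG box model 25795, -3.10 for the ABC transporter 22144, -2.50 for the zinc finger model 73753 and -1.90 for the hydrolase 346819. For a reverse transcriptase model (35115) it was -2.96, for 41552, described only by a yeast relative, -2.75, and for a sodium and hydrogen exchanger (349622) -0.89.

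Higher changes with GR24 were 2.10 for the CBF1/Su(H) type model 343820, 1.85 for an AAA ATPase (26435), 1.63 for a transposase of the hAT type (342848), 1.61 for a GATA type zinc finger model (182937) and 1.61 for the C2H2 model 336739. They were 1.54 for a RING finger model (338665), 1.46 for a zinc transporter (70519), 1.44 for a kinesin (55092), 1.38 for the ubiquitin model 68287, 1.18 for the EF2 kinase family model 20914 and 1.04 for the laminin-like model 348578. For mitochondrial cytochrome c oxidase subunit I (337841) the difference was 2.04.

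Some of these calls were easily lost. That of 337841 was lost with the replicate block and without any 1 of GR24 1 h replicate 1 or 3, GR24 2 d replicate 1 or 3, acetone 1 h replicate 3 or acetone 2 d replicate 2 or 3. That of 17085 was lost under 15 of 19 alternatives, that of 342848 under 10, that of 338665 under 6 and that of 349622 under 4. Those of 26435, 182937 and 55092 were lost without acetone 1 h replicate 3 (adjusted p = 0.115, 0.0596 and 0.156), that of 70519 without acetone 1 h replicate 2 (0.0631) and that of 25795 without acetone 2 d replicate 2 (0.133).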

How the results depend on the processing

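Of 212 named models, 195 kept the call of the GR24 change under every alternative run, as did 32 of 37 for the effect at 1 h, 28 of 37 for the effect at 2 d and 26 of 37 for the interaction, and 0 reversed. Without a low-count filter, 912 models differed between treatments at 2 d (426 higher, 486 lower), and 514 had a higher GR24 change. With only the 2 d libraries fitted, 316 differed at 2 d (166 lower). Leaving out each library gave ranges of 5960 to 7667 models for the GR24 change (2932 to 3884 higher, 3028 to 3801 lower, at least 2-fold 1615 to 1854 and 892 to 1022), 4087 to 5825 for the acetone change (2096 to 2971 higher, 1991 to 2893 lower), 416 to 1052 for the interaction (96 to 368 higher, 320 to 698 lower), 594 to 1382 at 1 h (428 to 905 higher, 166 to 477 lower) and 98 to 547 at 2 d (58 to 244 higher, 40 to 303 lower). The models at least 2-fold higher at 1 h numbered 184 to 246, of which 31 to 50 (12.7 to 23.9%) were higher at 2 d. The count at 1 h was 677 without acetone 1 h replicate 2 and 594 without replicate 3, and that at 2 d was 98 without GR24 2 d replicate 3 and 222 without acetone 2 d replicate 3. The higher interaction count was 177 without GR24 1 h replicate 1 and 175 without acetone 2 d replicate 3. Leaving out a GR24 2 d or acetone 1 h library leaves 1 library, assumed to vary like the other groups. The causes were not tested.

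The GR24 change counted 7012 models with DESeq2 and 7606 with limma-voom, and the interaction 980 and 947. Replicate numbers do not pair the samples: deviations of same-numbered libraries correlated between -0.0030 and 0.0694 over 4 pairs. With the replicate block the counts were 7117 for the GR24 change, 5377 for the acetone change, 756 for the interaction, 1047 at 1 h and 342 at 2 d, with 46 models still higher at 2 d. With upper-quartile scaling the split at 1 h was 688 higher to 487 lower, against 843 to 380. The groups of 2 libraries and models of few reads limit what can be called.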
